A study of Rattus norvegicus with 4 samples.

Results

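The genes described here belong to G1 control of the cell cycle or are linked to it, and their transcripts were read in rat prostate tumour cells. They are the D cyclins Ccnd1, Ccnd2 and Ccnd3, their kinase partner Cdk4 and the inhibitors Cdkn1a and Cdkn1b. The others are the pocket protein gene Rbl2 and the growth-restraining or p53-linked genes Mdm2, Ccng1 and Btg1. All probe sets that the platform annotation assigns to 1 of these 10 symbols alone were taken, which gave 23 of the 8740 rat probe sets of the array and 10 of the 4736 genes that such probe sets cover. The 10 genes were chosen by their signal differences between the MAT-LyLu and G arrays, with results of these 4 arrays already known, so their differences are given as a description: no p-value is given for any of them, and nothing is supported with them.

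Total RNA came from the cell lines MAT-LyLu (Mat-Lylu in the labels), a highly metastatic subline of the Dunning R3327 rat prostate tumour, and of G, a non-metastatic subline of the same tumour, to which MAT-LyLu is compared here. Each line was read on 2 oligonucleotide arrays, 4 in all, and neither carried a stated transgene or treatment. The labels give no separate cultures for the duplicates, so the spread between arrays may be technical, and everything that differs between the 2 cell lines is confounded with the comparison. A signal is the sum over all cells of a sample, so fewer cells with a transcript and less transcript per cell cannot be told apart.

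D cyclins are made when growth factors reach a cell. They bind Cdk4 or its relative Cdk6, and the complex phosphorylates Rb and its relatives p107 and p130 (the product of Rbl2), which releases E2F factors and lets the cell enter S phase. Cdkn1a (p21) and Cdkn1b (p27) bind and restrain cyclin-kinase complexes. The tumour suppressor p53 induces Cdkn1a, Mdm2 and Ccng1, Mdm2 marks p53 for destruction, and Btg1 belongs to a family of antiproliferative proteins. In many carcinomas cyclin D1 is the D cyclin that is overproduced.

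Array medians lay between 2998 and 3015 signal units in MAT-LyLu and between 3049 and 3156 in G. Log2 signals correlated across the 6555 probe sets tested at r = 0.990 both between the MAT-LyLu arrays and between the G arrays, and at 0.822 to 0.829 between arrays of different lines; probe sets are not independent replicates. G replicate 1 stood apart at the bright end, with a highest signal of 64036 against 45582 to 47120 on the other arrays, and 9674 units for a bacterial control added to every sample (BioB) against 6566 to 7194. A background level was set on each array at the 95th percentile of 23 bacterial, yeast and mouse control probe sets, and lay between 1891 and 2311. Where neither array of a line reached it, the signal there gives only a bound. The fold is then written as "at least" if both arrays of the other line reached it. Of 2 prostate markers on the array, Pbsn and Sbp, neither reached background on any array. Of 4 leukocyte markers, Cd8a, Ptprc and Cd4 were above background on all 4 arrays, and of 3 endothelial markers Vwf was. Whether such signals come from those transcripts was not tested, so passing the level does not by itself show a transcript. The summed signal of 6 epithelial markers was 49998 to 50469 in MAT-LyLu and 9603 to 10979 in G; Krt8 gave 41435 and 41521 of it in MAT-LyLu, against 1978 and 1691 in G, while Epcam, Krt14 and Krt19 lay under background on all 4 arrays. The summed signal of 5 fibroblast markers was 8016 to 8352 in MAT-LyLu and 115334 to 115800 in G. Their part in the differences below was not tested.

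MAT-LyLu cells had much more Ccnd1 signal and much less Ccnd3 signal than G cells, with a smaller deficit of Ccnd2. Cdk4 was bright in both lines and close to equal. Btg1 and Mdm2 were higher in MAT-LyLu and Ccng1 lower, Cdkn1a was close to equal, and Cdkn1b lay under background in both lines. Of the 23 probe sets, 21 passed the filter on low signals, and the 2 that did not were the Cdkn1b probe set and 1 of Mdm2. At an adjusted p under 0.05 in the limma fit over all probe sets, counted here once only to set the genes beside the whole array, 8 of the 21 were higher in MAT-LyLu and 8 lower, beside 13.6% and 20.1% (33.7% in either direction) of all 6555 probe sets; the split was 8 and 5 with quantile normalization. The arrays of the lines did not overlap for 19 of the 21, beside 67.4% of all probe sets. The rule drew on these same differences, so nothing is read from either count. The median log2 difference of the 21 (MAT-LyLu minus G) was 0.01, and its median size was 0.74, beside -0.03 and 0.18 for all probe sets tested.

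**Figure D1:**
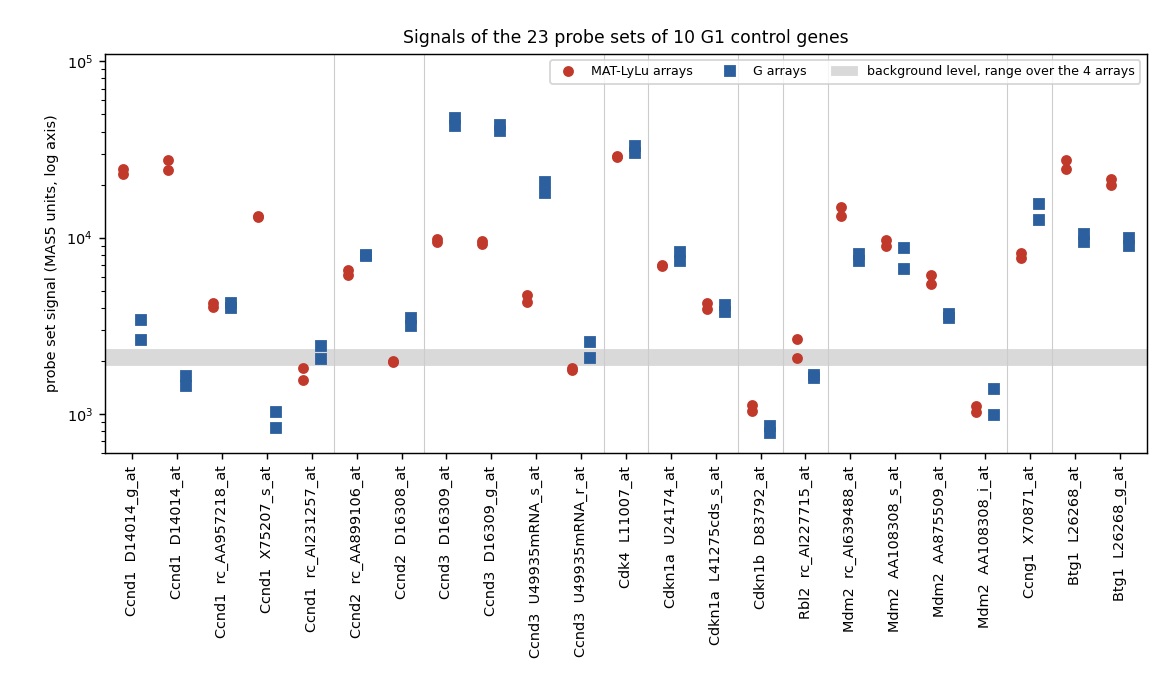
Signal of every probe set of the 10 genes on each array, on a log axis; circles are the 2 MAT-LyLu arrays, squares the 2 G arrays, and the grey band is the range of the background level over the 4 arrays (1891 to 2311). For 3 Ccnd1 probe sets the circles stand far above the squares, and for 3 Ccnd3 probe sets far below.

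Ccnd1, which encodes cyclin D1, was read by 5 probe sets, and they fell into 2 sorts. Probe set D14014_g_at had 24655 and 22835 units in MAT-LyLu, against 3412 and 2620 in G. Both G arrays were above background there, so its fold is not written as a bound, at 7.90-fold higher in MAT-LyLu (log2 difference 2.98, SE 0.13). Those G signals were lower than the G signals of the leukocyte marker Cd8a (7097 and 6490). How much of them is Ccnd1 transcript was not tested. Probe set D14014_at, named after the same sequence record, had 24050.3 and 27732 units in MAT-LyLu, against 1647 and 1442 in G. Both G values were under background, so the fold is at least 12.5 and the fitted log2 difference of 4.05, or 3.64 with a floor at the background level, has no exact size. Probe set X75207_s_at had 13347 and 13102 units in MAT-LyLu, against 836 and 1027 in G, again under background in G, which makes the fold at least 6.39; the fitted log2 difference was 3.81, or 2.68 with a floor at the background level. These 3 probe sets placed both MAT-LyLu arrays well above both G arrays.

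The other 2 probe sets annotated to Ccnd1, both named after expressed sequence tags, did not follow. Probe set rc_AA957218_at had 4038 and 4250.1 units in MAT-LyLu, against 4242 and 3964 in G, so the lines overlapped (log2 difference 0.01, SE 0.08). Probe set rc_AI231257_at had 1827 and 1562 units in MAT-LyLu, both under background, against 2427 and 2045 in G, of which 1 was above it. That difference runs the other way, with a log2 difference of -0.40 that was -0.12 with a floor at the background level. With MAT-LyLu alone raised to background it was 1.07-fold lower there, which is no firm bound because 1 G array was under background too. Taking only probe sets above background on all 4 arrays, the Ccnd1 log2 differences were 2.98 for D14014_g_at and 0.01 for rc_AA957218_at. What the tag-derived probe sets bind was not tested.

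Ccnd3, which encodes cyclin D3, went the opposite way on all 4 of its probe sets, the 4th of them close to background. Probe set D16309_at had 9460.2 and 9805 units in MAT-LyLu, against 42827 and 47601 in G, 4.68-fold lower in MAT-LyLu (log2 difference -2.23, SE 0.10). Probe set D16309_g_at had 9142 and 9550.1 units in MAT-LyLu, against 40241 and 43547 in G, 4.47-fold lower. Probe set U49935mRNA_s_at had 4308 and 4699 units in MAT-LyLu, against 20574 and 17853 in G, 4.25-fold lower. The 3 probe sets gave nearly one fold, with U49935mRNA_s_at dimmer than the D16309 probe sets. D16309_at and D16309_g_at are named after the same sequence record and are not independent readings. The G signals of D16309_at stood at 90.9% and 74.3% of the highest signal on their array, those of U49935mRNA_s_at at 43.7% and 27.9%, so the fold was about as large well below the ceiling. The 4th, U49935mRNA_r_at, had 1819 and 1781 units in MAT-LyLu, both under background, against 2550.1 and 2079 in G, of which 1 was above it. Its fitted log2 difference of -0.35 was -0.16 with a floor at the background level. With MAT-LyLu alone raised to background the fold was 1.10, no firm bound because 1 G array was under background too. Without G replicate 0 and without G replicate 1, the array with the high ceiling, the 3 bright probe sets kept log2 differences from -2.30 to -1.98.

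The promoter of Ccnd3 is shown because it is the cyclin D gene with the largest deficit in MAT-LyLu for which the sequence tables hold an entry. Promoter windows run from 250 bases before to 50 bases after the gene start and come from RefSeq, build GRCr8; 8 of the 10 genes matched, and Ccnd1 and Ccnd2 are named only. The Ccnd3 window is chr9:20897826-20898125, minus strand, printed 5′ to 3′ with the capitals marking a CRE core (TGACGT), a GC box (GGGCGG) or an E box (CACGTG) on either strand.
Ccnd3 promoter: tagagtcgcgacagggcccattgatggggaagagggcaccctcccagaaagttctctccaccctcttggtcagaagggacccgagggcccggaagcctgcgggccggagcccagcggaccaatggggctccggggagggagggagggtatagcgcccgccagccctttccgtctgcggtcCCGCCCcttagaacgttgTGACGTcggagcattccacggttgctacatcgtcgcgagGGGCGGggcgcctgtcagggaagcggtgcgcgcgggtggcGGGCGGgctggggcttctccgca
Its CRE core, the centre of the site bound by CREB and ATF factors, begins 52 bases before the start, and its 3 GC boxes, the sites of Sp1-type factors, begin at -70, -13 and 28. Among 33465 promoter windows of 300 bases, 7.94% hold a CRE core and 33.1% a GC box, and among the 8 windows of these genes 1 and 7 do. Ccnd3 was 69.0% G and C, against a median of 51.7% over all windows. A match to these letters is a description of the window and no evidence of binding.

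Ccnd2, which encodes cyclin D2, was lower in MAT-LyLu on both probe sets but by different amounts. Probe set D16308_at had 1992 and 1973 units in MAT-LyLu, of which 1 was above background, against 3516 and 3154 in G. It was 1.67-fold lower in MAT-LyLu (log2 difference -0.74, SE 0.09, or -0.63 with a floor at the background level). Probe set rc_AA899106_at had 6151 and 6549.5 units in MAT-LyLu, against 7894 and 7965 in G, 1.25-fold lower (log2 difference -0.32, SE 0.08). Over the alternatives the smaller difference ran from -0.37 to -0.25. The ranges of the lines did not overlap on either probe set.

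**Figure D2:**
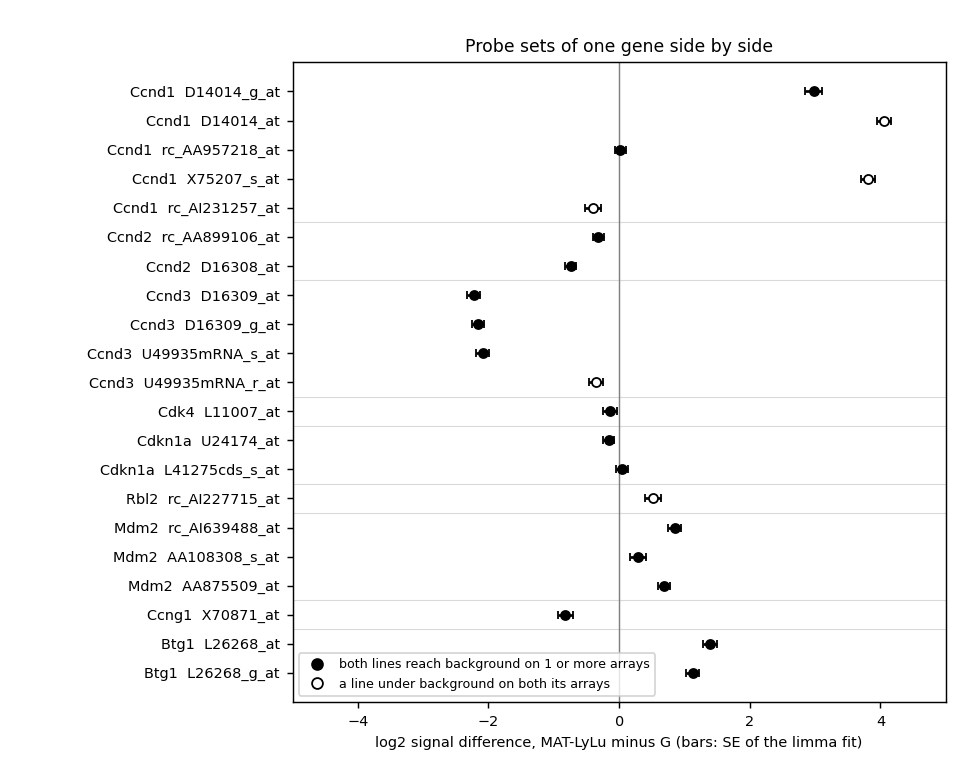
Log2 signal difference, MAT-LyLu minus G, of the 21 probe sets that passed the filter, with the SE of the limma fit as bars; open circles mark probe sets under background on both arrays of a line. The Ccnd1 probe sets spread from -0.40 to 4.05, while those of Btg1 lie at 1.13 and 1.39.

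Cdk4, which encodes the catalytic partner of the D cyclins, had 28642 and 29147 units in MAT-LyLu, against 33283 and 30349 in G. The log2 difference was -0.14 (SE 0.11), and its values over 14 alternatives ran from -0.20 to -0.04. The ranges of the lines did not overlap, yet the gap was small beside the spread of the G arrays. The Cdk4 promoter is shown for its repeated E boxes, the binding sequence of Myc and related factors; the window is chr7:64771203-64771502, plus strand, with capitals as above.
Cdk4 promoter: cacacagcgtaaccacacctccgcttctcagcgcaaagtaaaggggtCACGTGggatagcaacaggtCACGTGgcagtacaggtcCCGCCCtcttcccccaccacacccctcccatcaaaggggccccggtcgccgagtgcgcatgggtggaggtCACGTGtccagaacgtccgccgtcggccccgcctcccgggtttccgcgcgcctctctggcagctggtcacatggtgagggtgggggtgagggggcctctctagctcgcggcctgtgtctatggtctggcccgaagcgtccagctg
E boxes begin at -203, -183 and -95. An E box occurs in 6.42% of all windows and, among the 8 windows of these genes, in that of Cdk4 alone.

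Of the kinase inhibitors, Cdkn1a had small differences on both probe sets and Cdkn1b could not be measured. Cdkn1a, the p21 gene, had 7029 and 6925 units in MAT-LyLu on probe set U24174_at, against 8237 and 7397 in G (log2 difference -0.16, SE 0.09). On L41275cds_s_at it had 3928 and 4268 units in MAT-LyLu, against 4169.9 and 3802 in G, which overlap (log2 difference 0.04, SE 0.09). Over 14 alternatives U24174_at ran from -0.24 to -0.08 and L41275cds_s_at from -0.03 to 0.11. Cdkn1b, the p27 gene, had 1116 and 1040.2 units in MAT-LyLu on D83792_at, against 849 and 779 in G. All 4 lay under background, so the line with more Cdkn1b transcript cannot be named from these arrays. Much of the regulation of p27 acts on the protein, which arrays do not read.

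Rbl2, the gene of the pocket protein p130, had 2655 and 2066 units in MAT-LyLu, of which 1 was above background, against 1650.5 and 1604 in G, both under it. With G alone raised to background the fold was 1.14, no firm bound because 1 MAT-LyLu array was under background too. The fitted log2 difference was 0.52, or 0.34 without MAT-LyLu replicate 0 and 0.27 when floored at background.

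Mdm2, which encodes the ubiquitin ligase of p53, was read by 4 probe sets. Probe set rc_AI639488_at had 14899 and 13197 units in MAT-LyLu, against 8113 and 7409 in G, 1.81-fold higher in MAT-LyLu (log2 difference 0.85, SE 0.10). Probe set AA875509_at had 5448 and 6165 units in MAT-LyLu, against 3694 and 3493 in G, 1.61-fold higher (log2 difference 0.69, SE 0.09). Both separated the lines by more than the gap between duplicates. Probe set AA108308_s_at had 9637 and 8965 units in MAT-LyLu, against 8681 and 6660.2 in G (log2 difference 0.29, SE 0.13), or 0.48 without G replicate 0 and 0.10 without G replicate 1. Probe set AA108308_i_at had 1108 and 1023 units in MAT-LyLu, against 1391 and 983 in G, all under background, and was left out by the filter.

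Btg1, an antiproliferative gene often high in resting cells, differed most after Ccnd1 and Ccnd3. Probe set L26268_at had 27486 and 24585 units in MAT-LyLu, against 10432 and 9414 in G, 2.62-fold higher in MAT-LyLu (log2 difference 1.39, SE 0.10). Probe set L26268_g_at had 21402 and 19842 units in MAT-LyLu, against 9908 and 8969 in G, 2.18-fold higher (log2 difference 1.13, SE 0.10). The probe sets share a sequence record and are not independent readings.

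Ccng1, which encodes cyclin G1 and is a target of p53 like Mdm2, had 8208 and 7677 units in MAT-LyLu on X70871_at, against 15603 and 12639 in G. It was 1.77-fold lower in MAT-LyLu (log2 difference -0.82, SE 0.12), and its values over 14 alternatives ran from -0.97 to -0.67. The 3 p53 targets among the 10 genes therefore had differences of 3 kinds, Mdm2 higher in MAT-LyLu, Ccng1 lower and Cdkn1a close to equal.

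The promoters of Btg1 and Mdm2, the genes higher in MAT-LyLu beside Ccnd1 whose windows are in the tables and whose signals were above background in both lines, are shown for comparison with that of Ccnd3. The Btg1 window is chr7:33227899-33228198, plus strand, and the Mdm2 window chr7:55200742-55201041, minus strand, with capitals as above.
Btg1 promoter: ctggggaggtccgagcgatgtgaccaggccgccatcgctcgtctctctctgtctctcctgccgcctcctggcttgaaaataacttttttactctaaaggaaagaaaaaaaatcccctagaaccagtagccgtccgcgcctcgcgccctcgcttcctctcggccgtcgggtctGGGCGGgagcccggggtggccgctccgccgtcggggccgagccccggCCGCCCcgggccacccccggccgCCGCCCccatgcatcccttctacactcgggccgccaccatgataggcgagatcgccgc
Mdm2 promoter: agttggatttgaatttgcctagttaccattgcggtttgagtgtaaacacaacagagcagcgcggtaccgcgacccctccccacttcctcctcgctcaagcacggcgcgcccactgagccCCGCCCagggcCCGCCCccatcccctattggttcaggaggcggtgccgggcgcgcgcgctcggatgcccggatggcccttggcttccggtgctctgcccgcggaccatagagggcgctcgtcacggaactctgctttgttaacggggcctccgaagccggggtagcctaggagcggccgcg
GC boxes begin at -78, -31 and -8 in Btg1 and at -131 and -120 in Mdm2, so genes on either side of the comparison hold them. Neither window holds a CRE core or an E box. An AP-1 site (TGANTCA, in 7.33% of all windows) and an E2F site (TTTNNCGC, in 4.92%) were found in none of the 8 windows. A CCAAT box (CCAAT, in 37.5% of all windows) was found in 4. A p53 half-site, in 7.98% of all windows, was found in those of Cdkn1a and Ccng1. Both strands were searched, and none of these motifs overlap in the windows printed.

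**Figure D3:**
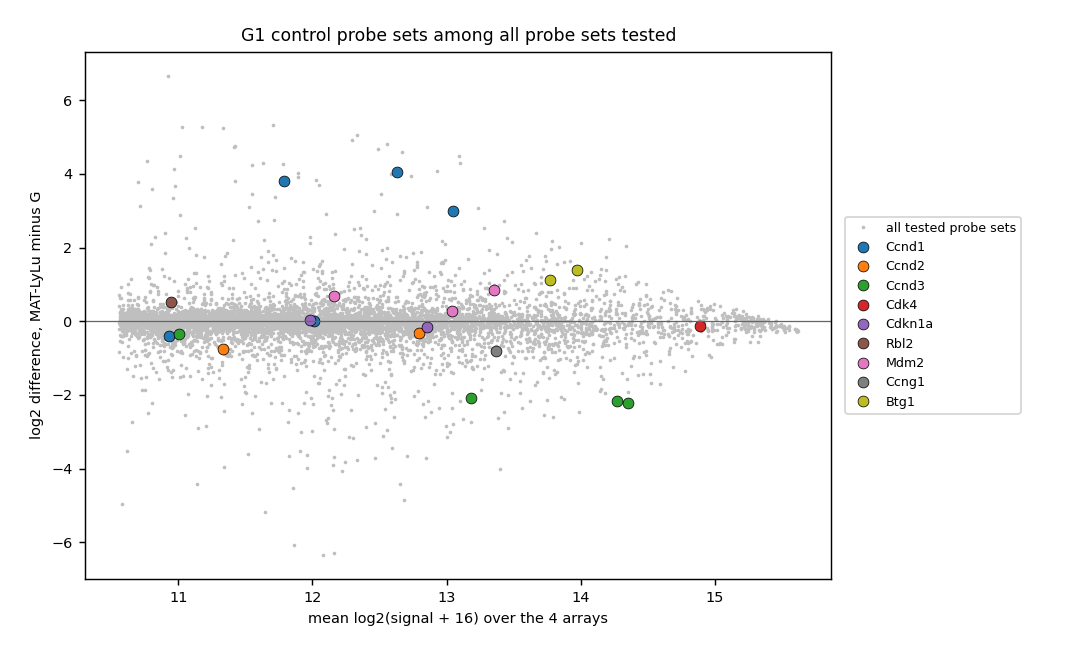
Log2 difference, MAT-LyLu minus G, against mean log2 signal over the 4 arrays for the 6555 probe sets tested (grey), with the 21 probe sets of the G1 control genes in colour. The Ccnd1 probe sets fitted at 2.98 to 4.05 and the Ccnd3 probe sets at -2.09 to -2.23 lie clear of the dense band around 0, and Cdk4 lies near 0 at the bright end.

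Genes with a pattern like that of Ccnd1 or Ccnd3 were sought among the 3867 genes tested, each by its probe set with the highest mean log2 signal, by the Euclidean distance of the 4 log2 values after centring each gene. Nearest to Ccnd1 (D14014_g_at) were Serpine2, a serine protease inhibitor (distance 0.26, log2 difference 3.10), Marcks, a protein kinase C substrate (0.29, 2.92), and Gpr15lg (0.29, 3.07). Nearest to Ccnd3 (D16309_at) were the myelin protein gene Pmp22 (distance 0.15, log2 difference -2.36), the surface glycoprotein gene Thy1 (0.18, -2.21) and the nucleotide hydrolase gene Dnph1 (0.19, -2.16). Marcks was under background on both G arrays and Thy1, also one of the fibroblast markers, on both MAT-LyLu arrays. With 4 arrays the measure amounts to a like difference between the lines.

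Among the other cyclins, kinases and Rb-E2F genes, Cdk5 and Hdac2 fell in MAT-LyLu and Cdc37 and Cdk1 rose. Of 45 genes listed, 16 had a probe set and 14 were tested. At an adjusted p under 0.05 in limma over all probe sets, 2 rose in MAT-LyLu, 2 fell and 10 did not pass, beside 13.7% and 19.6% (33.3% in either direction) of all 3867 genes; the 28.6% called here is near that share. Their median log2 difference was 0.04, beside -0.02 for all genes. Cdk5, a kinase best known from neurons, had 4321 and 3947 units in MAT-LyLu, against 9603 and 8131 in G, a fall of 2.14-fold (log2 difference -1.09, SE 0.11, limma adjusted p = 0.00012). The histone deacetylase gene Hdac2 had 5408 and 4709 units in MAT-LyLu, against 9688 and 9224 in G, a fall of 1.87-fold (adjusted p = 0.00021 in limma). Both rises were smaller: Cdc37, a chaperone of kinases that loads Cdk4, rose 1.33-fold and Cdk1, the mitotic kinase, 1.27-fold (limma adjusted p = 0.022 and 0.030). Of the 2 Cdc37 probe sets tested, 1 passed as higher. Cdc37 and Cdk1 both lost their call when either MAT-LyLu array was left out. Without MAT-LyLu replicate 0 and replicate 1 the log2 differences were 0.36 and 0.45 for Cdc37, and 0.33 and 0.36 for Cdk1. Cdk1 alone of the 2 lost its call also without G replicate 1 (log2 difference 0.26). Ccne1 (cyclin E1) and Cdk2, the partners of the next step, did not pass on their brightest probe sets (log2 differences 0.06 and 0.12). A dimmer Cdk2 probe set passed as higher in MAT-LyLu, but was under background on both G arrays. When a gene was called by any of its probe sets that passed in the direction of their mean, 4 rose and 3 fell.

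Among genes of S phase and mitosis Cdc20 rose most. All 21 genes with a probe set, of 44 listed, were tested, and 6 rose, 1 fell and 14 did not pass (33.3% called, the share of all genes), with a median log2 difference of -0.004. Cdc20, which activates the anaphase-promoting complex, had 12399 and 11120 units in MAT-LyLu, against 4955 and 5010.3 in G, a rise of 2.35-fold (log2 difference 1.23, SE 0.09, limma adjusted p = 2.5e-05). The helicase subunits went apart, with Mcm5 at 1.35-fold higher (adjusted p = 0.0039 in limma) and Mcm6 at 1.57-fold lower (0.0041), on 3 of 3 probe sets. Tyms, the thymidylate synthase gene, was under background on both G arrays and rose at least 1.17-fold (limma adjusted p = 0.0021), a call lost with a floor at that level (0.24). Pcna, the sliding clamp of replication, had 29761 and 28052 units in MAT-LyLu, against 28780 and 28935 in G. Stmn1 was as close, with a log2 difference of -0.004, and so was Top2a on its brightest probe set (-0.08), whereas 1 of its other 2 probe sets passed as higher (0.55, limma adjusted p = 0.035). Without MAT-LyLu replicate 0 the counts were 3 and 1. Pcna, Top2a and Stmn1 were named after their values were seen, as were Ccne1 and Cdk2.

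**Figure D4:**
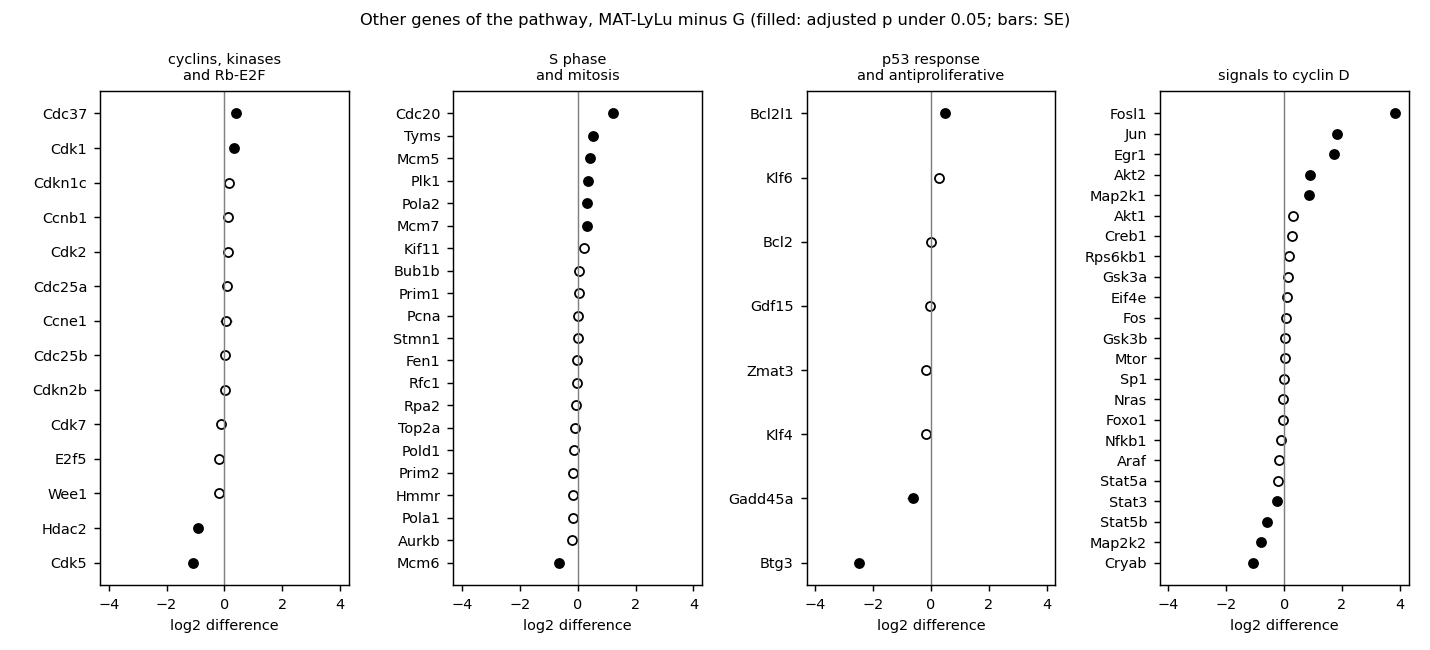
Log2 difference, MAT-LyLu minus G, of each tested gene of 4 lists, by its brightest probe set, with the SE as bars; filled circles passed an adjusted p under 0.05 in limma. Fosl1 (fitted 3.83) was under background in G and Btg3 (fitted -2.49) in MAT-LyLu, so both points are bounded values; floored at background they would be 2.92 and -2.10.

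Of the p53 response and antiproliferative genes, 43 were listed, 11 had a probe set and 8 were tested; 1 rose, 2 fell and 5 did not pass, or 1 and 1 with quantile or cyclic loess normalization. The 37.5% called is near the 33.3% of all genes. The median log2 difference was -0.10. Btg3, of the same family as Btg1, had 1638 and 1546 units in MAT-LyLu, both under background, against 9477 and 8534 in G, a fall of at least 4.28-fold (limma adjusted p = 5.2e-07). Btg1 and Btg3 thus stood on opposite sides. Bcl2l1, which encodes the survival protein Bcl-xL, rose 1.39-fold on its brightest probe set (limma adjusted p = 0.012), and 2 of its 3 probe sets passed as higher. The call on the brightest was lost without MAT-LyLu replicate 1 (log2 difference 0.33 in place of 0.48). Gadd45a, a growth arrest gene, had 7874 and 4990.4 units in MAT-LyLu, against 10104 and 9346 in G (limma adjusted p = 0.035). The MAT-LyLu arrays differed more than the lines' nearest arrays, 1 of its 4 probe sets passed, and the call was lost with quantile (0.086) or cyclic loess normalization (0.059), without either G array (0.051 and 0.087) or without MAT-LyLu replicate 1 (0.13).

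Among 35 genes of signals that lead to cyclin D synthesis or turnover, 23 had a probe set and were tested; 5 rose, 4 fell and 14 did not pass, or 7 and 3 with quantile, median or cyclic loess scaling. The 39.1% called is near the 33.3% of all genes, and the median log2 difference was 0.04. Fosl1, Jun and Egr1, which encode transcription factors, had the largest fitted rises, while Fos, which encodes a partner of Jun, had 11414 and 11382 units in MAT-LyLu, against 11688 and 9978 in G, and passed on none of its 3 probe sets. Fosl1, the gene of the AP-1 subunit Fra-1, had 17549 and 14050.4 units in MAT-LyLu, against 1015 and 1161 in G, both under background, a rise of at least 7.59-fold (limma adjusted p = 2.8e-07). Jun had 13332 and 12709 units in MAT-LyLu, against 3606 and 3646 in G, a rise of 3.58-fold (adjusted p = 1.5e-06 in limma), with 3 of its 4 probe sets past the threshold in that direction. Egr1, a zinc finger factor induced by growth factors, rose 3.31-fold on its brightest probe set, and 2 of its 4 probe sets passed. Map2k2, which encodes the ERK kinase MEK2, fell 1.75-fold on its brightest probe set (limma adjusted p = 0.00078), with 3 of 3 probe sets lower. Map2k1, which encodes its paralogue MEK1, went the other way, with 18502 and 13854 units in MAT-LyLu, against 9426 and 8188 in G (1.82-fold higher, limma adjusted p = 0.0025, 2 of 3 probe sets). Fos and Map2k1 were added once their values were known. Gsk3b, a kinase that marks cyclin D1 for turnover, had a log2 difference of 0.04 (SE 0.11) on its brightest probe set. A dimmer one passed as higher in MAT-LyLu, but was under background on both G arrays. Gsk3b was picked once its values were known.

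**Figure D5:**
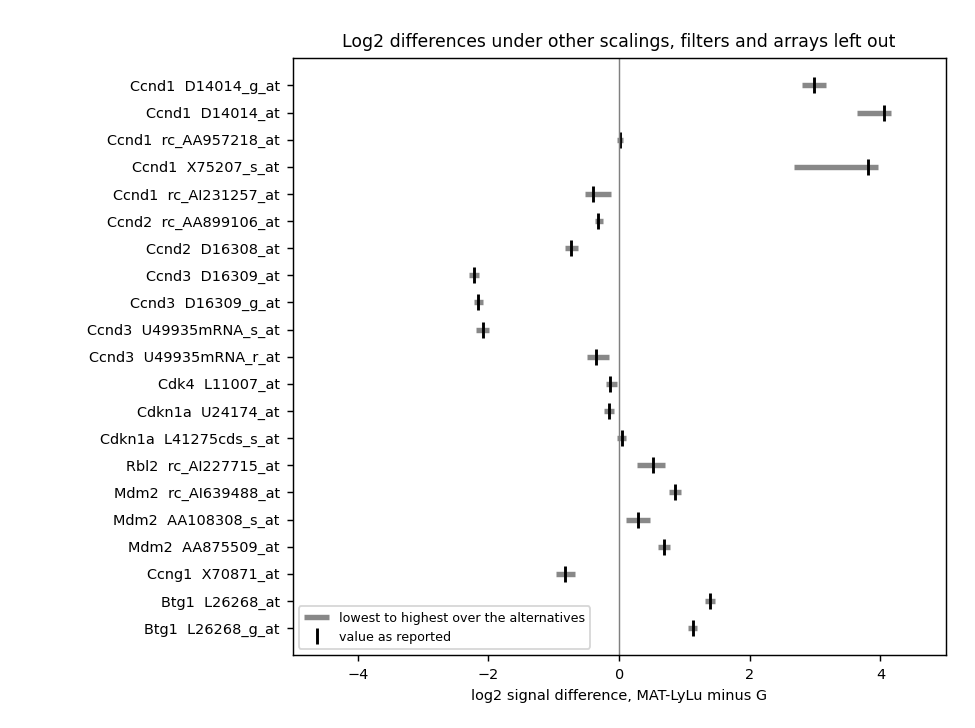
For each tested probe set of the 10 genes, the log2 difference as reported (tick) and its lowest and highest value over the alternative scalings, filters, pseudocounts, models and arrays left out (bar). The bars of the 3 Ccnd1 probe sets higher in MAT-LyLu stay between 2.68 and 4.16. Those of the 3 bright Ccnd3 probe sets stay between -2.30 and -1.98.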

How the data were processed

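The authors deposited probe set signal intensities for 4 arrays, linear and positive; per the submitters' processing notes they were made with MAS5, its version and scaling target being not given in the sources used here. Each array was put in its line by its title. The 2% trimmed means of the arrays differed by at most 7.83%, under the limit of 10%, so no further scaling was applied. Symbols came from the platform annotation and were updated by gene identifier (1 symbol for 7018 of 8799 probe sets, several for 308, none for 1473; 6994 matched in the GRCr8 RefSeq table). After 59 controls and the 25% of the others with the lowest mean log2 signal were left out, log2(signal + 16) was fitted with limma 3.58.1 in R 4.3.3 (lmFit, eBayes with an intensity trend, 2-sided, Benjamini-Hochberg over 6555 probe sets, threshold 0.05). Folds are 2 to the power of the log2 difference, and fitted folds of dim probe sets depend on the background.

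A gene outside the 10 was represented by its tested probe set with the highest mean log2 signal. All probe sets of the 10 genes are given, with up to 4 genes of each list by smallest p among those past the threshold whose lines do not overlap, and the 3 genes nearest to Ccnd1 and Ccnd3. Members and lists were chosen with earlier results of these data known. In the array's naming, _s_at marks probe sets that can match related transcripts, _g_at those for a group of similar sequences, and _i_at and _r_at those designed under relaxed rules. Alternatives were pseudocounts of 1 and 64, no filter or the lowest 50% left out, and quantile and median scaling. The others were no trend, a block for the replicate number and leaving out each array. For the lists, a gene was also counted as called when any of its probe sets passed in the direction of their mean difference. The background level, a floor at it, cyclic loess scaling and a count over plain _at probe sets were added after seeing the data.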

Additional observations from a re-analysis of the deposited data

How the results depend on the processing

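Of 89 recounts of calls under an alternative, 84 lay within 1.5 times the reported count. Restricting the G1 control genes to plain _at probe sets left 10 calls (5 higher in MAT-LyLu, 5 lower) in place of 16, because fewer probe sets were counted. The cyclin, kinase and Rb-E2F list gave 7 calls in place of 4 when any passing probe set of a gene, in the direction of their mean, was enough. That rule can add genes such as Cdk2 and Ccnb1, which passed on another probe set but not on their brightest. With each array left out in turn, the calls ran from 13 to 15 for the G1 control genes, 2 to 5 for the cyclin, kinase and Rb-E2F list, 4 to 7 for S phase and mitosis, 2 to 3 for the p53 list, 8 to 10 for the signal list and 1664 to 2243 for all probe sets. A fit on 3 arrays assumes that the lone array varies like the other line. Of 290 log2 differences of the G1 control probe sets under an alternative, 278 moved by less than 1 SD between duplicates, 12 moved further, and no called one changed sign.

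The replicate numbers are shared by the lines, but nothing in the labels pairs them, and deviations of same-numbered arrays correlated at 0.16 over 6555 probe sets. With the replicate block 2353 probe sets were called (951 higher, 1402 lower) in place of 2209, and 17 of the G1 control probe sets in place of 16. Differences near the background level are limited by signal over background. Among them are those of Rbl2, Cdkn1b, Ccnd2 on D16308_at and the dim Ccnd1 and Ccnd3 probe sets. The number of arrays limits the precision of every value.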
